A study of Drosophila melanogaster with 2 samples.

Results

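The genes of the aminoacyl-tRNA synthetases of Drosophila melanogaster were described by where the transcription factor cropped (crp) was found on their promoters. A gene was taken as a member where its symbol in the Ensembl release 115 annotation of the dm6 genome was a three-letter amino acid code followed by RS or RS-m, with or without an alpha- or beta- prefix, and GluProRS was added. This gave 35 of the 13968 protein-coding genes on the main chromosome arms: 20 cytosolic enzymes or subunits, and 15 mitochondrial enzymes, whose symbols end in -m. Cytosolic here means only that the symbol lacks -m. Where a single gene is listed for an amino acid, the compartment of its product was not examined. The samples were whole embryos of mixed sex, collected 0 to 16 h after laying, from transgenic flies that stably carry crp fused at its C-terminus to GFP; what drives the fusion gene is not stated in the labels. Chromatin was sonicated to 200 to 800 bp and precipitated with an anti-GFP antibody in 2 biological replicates, numbered 1 and 3. All samples form 1 group, so the study holds no comparison between conditions; a control experiment that the labels point to was not analysed here. A whole embryo pools all its cell types, so binding in few cells and weak binding in many cannot be told apart.

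Aminoacyl-tRNA synthetases join each amino acid to its own tRNA and so supply both ribosome systems of the cell. All these enzymes are encoded in the nucleus; for most amino acids one gene serves the cytosol and a second serves the mitochondrion, while for some a single gene is listed. They fall into class I and class II by the fold of the catalytic domain. cropped is the fly relative of mammalian AP-4 and belongs to the bHLH-zipper proteins, a family that binds E-boxes (CANNTG); AP-4 is known to bind the E-box CAGCTG.

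The deposited lists give each peak a signal value from the authors and a summit, the base of highest signal. The optimal IDR list holds 1122 peaks from a procedure for reproducibility between replicates (IDR, irreproducible discovery rate). The pooled list holds 26505 candidates, strong and weak, and includes all 1122. No candidate apart from the IDR peaks had a higher pooled signal than the weakest of them. A single IDR peak need not have near values in both replicates, and 1115 of the 1122 had a candidate in each. A summit was assigned to each gene with a transcript start within 1000 bp. The DNA at the strongest member summits is shown so that the E-boxes can be read beside the values that follow. The sequences are of the dm6 reference, 5′ to 3′ on the gene's own strand, for the 8 members of highest signal after CysRS and TyrRS-m are left out, which lie on an arm from which no sequence is printed here; capitals mark every CAGCTG in the stretch, or CACGTG where there is no CAGCTG. A summit window runs 50 bp to either side of the summit, a CAGCTG site is 30 bp around a copy within 50 bp of a summit, and a nearest CAGCTG site is 30 bp around the closest copy where that stretch held none.
LeuRS-m, summit window, chr3L:4825747-4825847, plus strand: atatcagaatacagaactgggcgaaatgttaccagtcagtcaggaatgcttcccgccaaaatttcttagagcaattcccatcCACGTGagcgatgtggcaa
LeuRS-m, nearest CAGCTG site, chr3L:4825851-4825880, plus strand: gatgcagagaaaCAGCTGttcgattgtaga
AlaRS-m, CAGCTG site, chr3L:5146018-5146047, plus strand: taaaaaatagaaCAGCTGCAGCTGgtgagc
TrpRS, nearest CAGCTG site, chr3R:9267019-9267048, minus strand: tttgcagcgcaaCAGCTGattttccagagt
TyrRS, summit window, chr3L:16419313-16419413, minus strand: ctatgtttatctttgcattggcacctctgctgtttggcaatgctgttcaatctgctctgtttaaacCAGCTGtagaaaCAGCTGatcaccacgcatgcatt
TyrRS, CAGCTG site, chr3L:16419547-16419576, minus strand: atttggttggtaCAGCTGtagttaaacatg
IleRS, summit window, chr3L:22288521-22288621, plus strand: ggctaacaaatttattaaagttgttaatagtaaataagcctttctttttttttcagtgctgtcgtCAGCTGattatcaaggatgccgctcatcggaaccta
SerRS, nearest CAGCTG site, chr2L:3037231-3037260, minus strand: tccagcactgccCAGCTGacgaaaagccta
ArgRS-m, CAGCTG site, chr3R:7887054-7887083, plus strand: gtgatgtcaaaaCAGCTGatgtgcagcgat
alpha-PheRS, CAGCTG site, chrX:8145830-8145859, minus strand: tcttggcgtcaaCAGCTGtttttattggag

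The window at the strongest member summit, upstream of LeuRS-m, held the E-box CACGTG but no CAGCTG, and the nearest CAGCTG began 66 bp downstream of that summit. The site at AlaRS-m held a pair of CAGCTG copies with no base between them. At TyrRS the stronger summit had 2 copies downstream and the second summit had 1 copy. At TrpRS the closest copy lay 50 bp upstream of the summit, so that it was not wholly within 50 bp, and at SerRS it lay 90 bp downstream. Copies wholly within 50 bp were also present 15 bp downstream of the summit at IleRS, 31 bp upstream of it at ArgRS-m and 28 bp upstream at alpha-PheRS.

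An IDR summit lay within 1000 bp of a start of 17 of the 35 synthetase genes (48.6%, 95% Wilson interval 33.0 to 64.4%), beside 11.1% of all protein-coding genes. A candidate of any strength was present at 27 of the 35 (77.1%, 61.0 to 87.9%), beside 50.7% of all genes. Of those 27 genes, 17 had an IDR summit (63.0%, 44.2 to 78.5%), beside 21.9% of all genes with a candidate. These intervals cover counting error only, and the lists hold no read counts, so the depth behind each peak is unknown. Each replicate gave a similar count: 17 members had a summit among the 1122 strongest candidates of replicate 1, where 11.2% of all genes did, and 15 had one among the 1122 strongest of replicate 3, where 10.7% did.

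**Figure D1:**
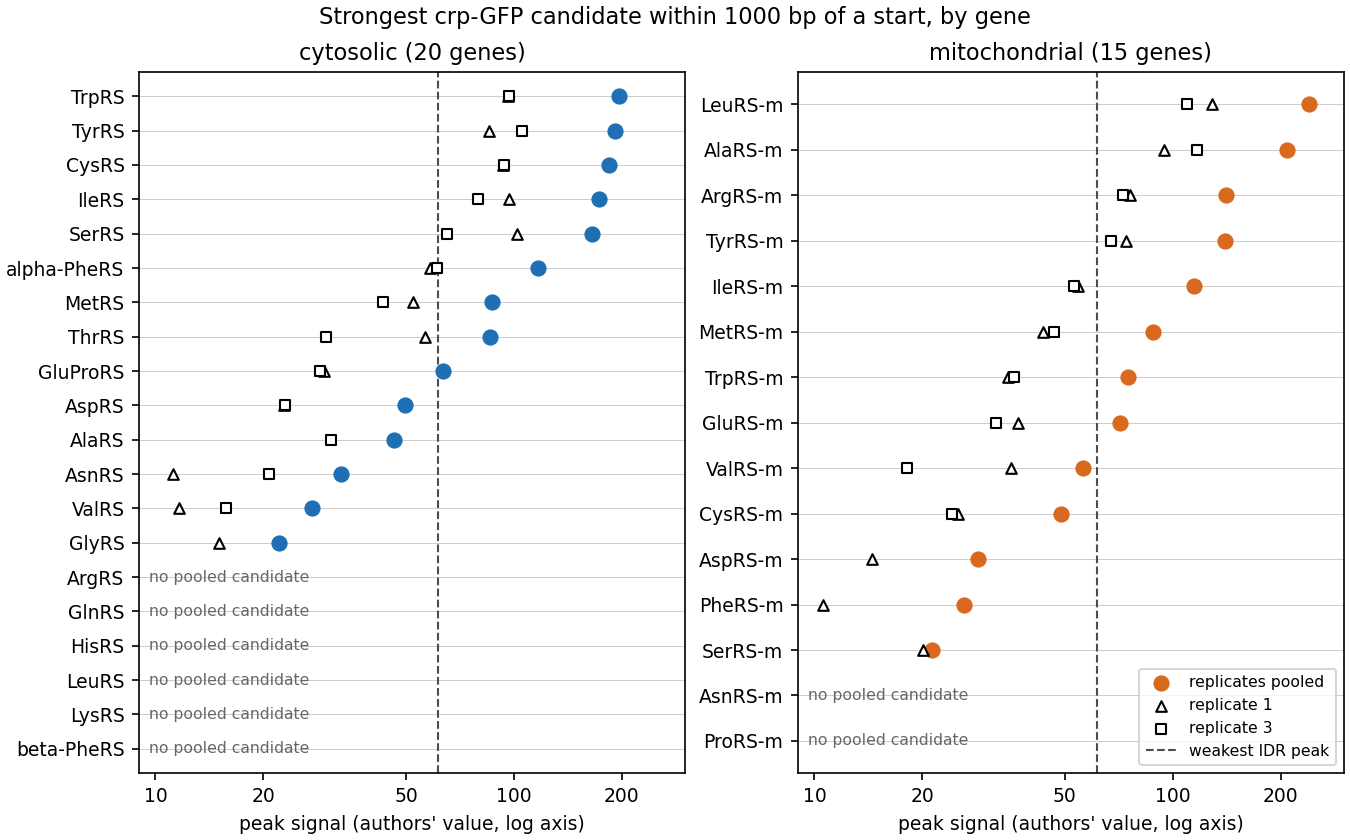
Authors' signal of the strongest pooled candidate within 1000 bp of a start (log axis) for the 20 cytosolic and 15 mitochondrial genes, with the replicate candidate covering the same summit as a triangle (replicate 1) or a square (replicate 3); a missing mark means that no candidate of that replicate covered the summit. 17 genes sit to the right of the dashed line at the weakest IDR peak (61.3), 10 lie to its left, and 8 have no pooled candidate.

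Peaks were present at genes of both compartments. An IDR summit was present at 9 of 20 cytosolic genes (45.0%, 25.8 to 65.8%) and at 8 of 15 mitochondrial genes (53.3%, 30.1 to 75.2%), and a candidate at 14 of 20 (70.0%, 48.1 to 85.5%) and 13 of 15 (86.7%, 62.1 to 96.3%). The intervals overlap, and the difference was not tested. An IDR summit was present at 8 of 15 cytosolic genes with a mitochondrial partner gene (53.3%, 30.1 to 75.2%). It was present at 1 of 5 without a partner gene, beside 11.1% of all genes. The strongest IDR summit had a median signal of 165 at the 9 cytosolic genes (range 63.3 to 197) and 127 at the 8 mitochondrial genes (71.4 to 239). Over all 17 members the median was 139.7, and over the 1550 genes with an IDR summit it was 123. The member median moved with the assignment rule, to 117 with a 500 bp window and 112 with the nearest start only.

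Among the cytosolic enzymes the strongest signals were at those for tryptophan, tyrosine, cysteine, isoleucine and serine. TrpRS, which charges the tryptophan tRNA, had a summit on arm 3R of signal 197 in the pooled list, 96.3 in replicate 1 and 97.1 in replicate 3, lying 77 bp upstream of its start. That summit was 38 bp from a start of Vps16A, a subunit of the vesicle tethering machinery of late endosomes, and so nearer to that gene. TyrRS, for tyrosine, had a summit on 3L of signal 191 (85.5 and 105 in replicates 1 and 3), 61 bp upstream. The second TyrRS summit, of signal 130.4 (61.0 and 76.0), lay 279 bp upstream of TyrRS and 16 bp from a start of CG33158. Both TyrRS summits were higher in replicate 3, and a second TrpRS summit, 276 bp upstream, reached 72.3.

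CysRS, for cysteine, had summits on 2R at both ends of the 1000 bp before its start. The stronger one, of signal 184 (93.6 and 93.8), lay 990 bp upstream of CysRS but 45 bp from a start of CG30094, and the other, of signal 112 (68.7 and 47.9), lay 3 bp from the start of CysRS itself. The first belongs to CysRS only by the 1000 bp rule, and the second was the summit at its own start. IleRS, for isoleucine, had 173 (97.0 and 79.7), 94 bp upstream on 3L, with a start of Hem, a regulator of actin assembly, 376 bp away. SerRS, for serine, had 165 on 2L, with replicate 1 at 102 and replicate 3 at 65.2, 65 bp past its start, inside the 5′ UTR, and 73 bp from a start of CG17260.

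The other cytosolic genes with an IDR summit were weaker. alpha-PheRS, the catalytic subunit of the cytosolic phenylalanine enzyme, had 117 (58.2 and 61.0) on X, 212 bp upstream and 25 bp from a start of CG2129, while beta-PheRS, the other subunit of that enzyme, had no candidate. MetRS, for methionine, had 86.7 (52.2 and 43.1), 58 bp upstream and 187 bp from CG15084. ThrRS, for threonine, had 85.6, with 56.4 in replicate 1 and 29.99 in replicate 3, 181 bp upstream and 285 bp from Patsas. Among the 17 members with an IDR summit this was the widest gap between the replicates at the strongest summit (a log2 ratio of replicate 3 to replicate 1 of -0.91). Replicate 3 also had a candidate of 42.3 within 1000 bp of a ThrRS start, which did not cover that summit. GluProRS, a single protein that charges both glutamate and proline tRNAs, had 63.3 (29.6 and 28.7), 74 bp upstream and 186 bp from AP-1sigma, a subunit of a clathrin adaptor. It was the weakest of the 17.

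Among the mitochondrial enzymes LeuRS-m and AlaRS-m had the highest signals of all members. LeuRS-m, for leucine, had 239 (129 and 109.6), 56 bp upstream on 3L and 110 bp from a start of Dhc64C, the heavy chain of cytoplasmic dynein. It had a second summit of signal 70.7 in its coding sequence, 148 bp downstream of the start, and another of signal 61.9, 871 bp upstream in an intron of Dhc64C. In replicate 1 the first and second of these summits fell on one candidate. AlaRS-m, for alanine, had 208, with replicate 1 at 94.5 and replicate 3 at 117, 21 bp upstream of its start and 14 bp from that of Fitm, a gene of lipid droplet formation.

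ArgRS-m, for arginine, had 141 (76.1 and 72.6); the summit was inside its 5′ UTR, 57 bp from the start and 369 bp from CG17816. TyrRS-m had 139.7 (74.2 and 67.1), 29 bp upstream and 26 bp from CG3589. The remaining 4 mitochondrial genes had no start of another protein-coding gene within 1000 bp of the summit. IleRS-m had 114 (54.5 and 53.1), 61 bp upstream. MetRS-m had 88.0 (43.5 and 46.6) and TrpRS-m had 74.9 (34.7 and 36.1), with summits 14 and 7 bp past the start, inside the 5′ UTR. GluRS-m, for glutamate, had 71.4 (37.0 and 32.1) in its coding sequence, 98 bp downstream. GluRS-m and TyrRS are neighbours on the same strand of 3L, each with a summit of its own.

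**Figure D2:**
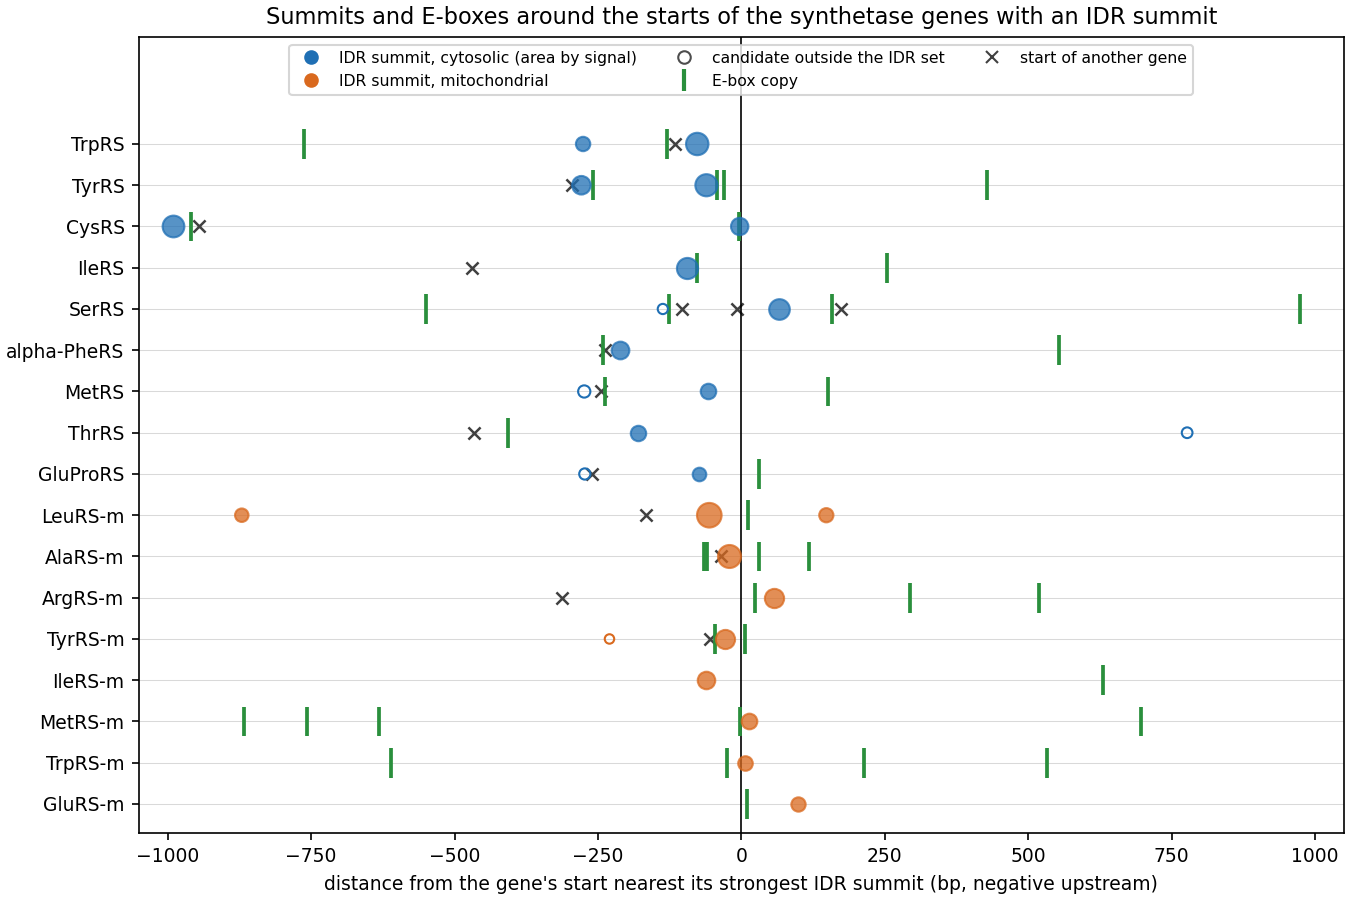
Summits within 1000 bp around the start nearest the strongest IDR summit of each of the 17 genes, in bp along the gene's strand. Filled circles are IDR summits and open circles weaker candidates (area by pooled signal). Green bars are copies of the E-box CAGCTG and crosses are starts of other protein-coding genes. Most strongest summits sit close to the vertical line at the start, CysRS has one at each end of its upstream window, and TyrRS has an E-box beside both summits.

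The peaks just inside and just outside the IDR set were close in signal. The weakest members inside it were GluProRS (63.3) and GluRS-m (71.4), and the strongest outside it were ValRS-m (56.3) and AspRS (49.5). No candidate outside the IDR set exceeded the weakest IDR peak of 61.3, so membership of the set followed the pooled signal.

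A candidate below the IDR set was the strongest at 10 members, 5 cytosolic and 5 mitochondrial, with signals from 21.4 to 56.3 (median 30.8). The strongest was at ValRS-m, the mitochondrial valine enzyme, with 56.3 pooled, 35.4 in replicate 1 and 18.1 in replicate 3, 8 bp upstream of a start; it was the only one of the 10 with CAGCTG within 50 bp of its strongest summit. AspRS, for aspartate, had 49.5 (22.9 and 22.9), and CysRS-m had 48.7 (25.2 and 24.3). The weakest were at PheRS-m (26.1), GlyRS (22.1) and SerRS-m (21.4), and the last of these lay 997 bp upstream of the start, in an intron of Nagk. AlaRS, AsnRS, AspRS-m and ValRS had values between those of CysRS-m and PheRS-m.

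No pooled candidate lay within 1000 bp of 8 members: the cytosolic ArgRS, GlnRS, HisRS, LeuRS, LysRS and beta-PheRS, and the mitochondrial AsnRS-m and ProRS-m. Weak candidates of a single replicate list were present at ArgRS (12.4 in replicate 3) and AsnRS-m (10.5 in replicate 1), and HisRS had one in each (10 and 11.7). For GlnRS, LeuRS, LysRS, ProRS-m and beta-PheRS no list held any candidate in the window. The lists stop at a lowest signal, 18.4 in the pooled one, so weaker signal was not detectable here.

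For leucine and arginine the mitochondrial gene alone had a candidate. For leucine the mitochondrial gene had the highest signal of all members and the cytosolic gene had no candidate, and for arginine ArgRS-m had 141 where ArgRS had none. Among 15 amino acids served by a gene of each kind, counting GluProRS for both glutamate and proline, an IDR summit was present at both genes for 5 (Glu, Ile, Met, Trp, Tyr). It was at the cytosolic gene only for 4 (Cys, Phe, Pro, Ser), at the mitochondrial gene only for 3 (Ala, Arg, Leu) and at neither for 3 (Asn, Asp, Val). Where both had one, the mitochondrial gene had the higher signal for 2 of 5, by 88.0 against 86.7 for Met and 71.4 against 63.3 for Glu. Of the 5 cytosolic genes with no mitochondrial gene listed for their amino acid (GlnRS, GlyRS, HisRS, LysRS, ThrRS), 1 had an IDR summit, ThrRS. An IDR summit was present at 11.1% of all genes, 45% of cytosolic members and 53.3% of mitochondrial members. Whether the pairs departed from those shares was not tested.

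**Figure D3:**
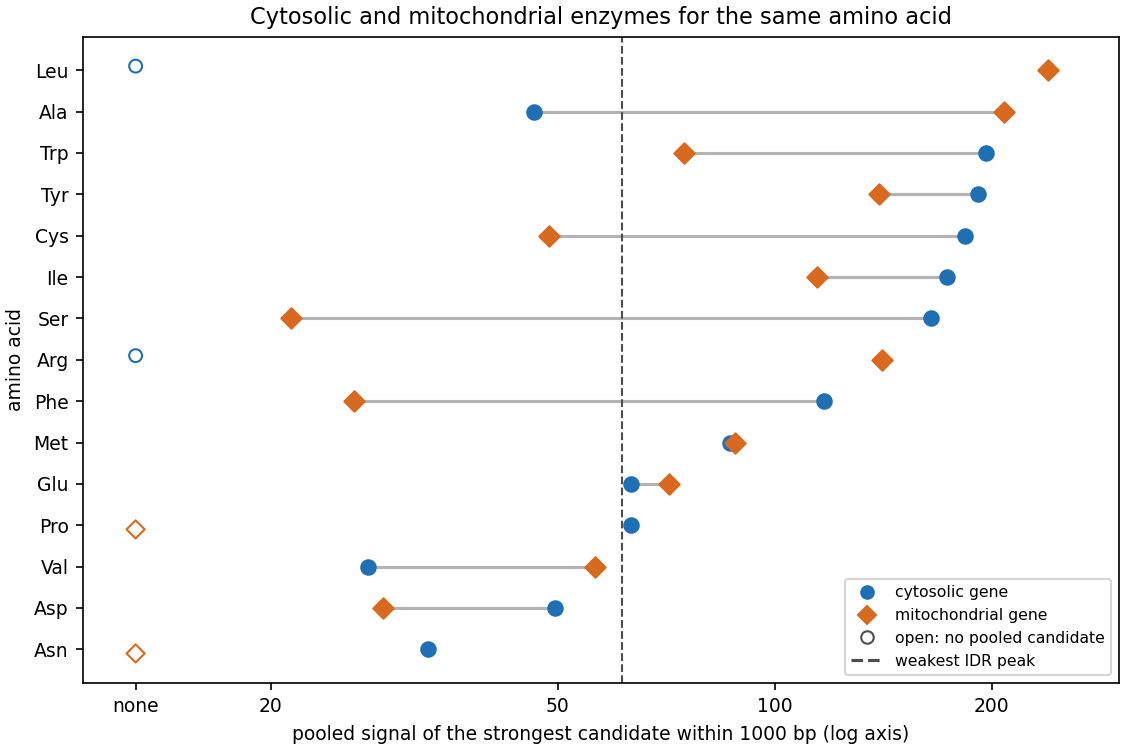
Pooled signal of the strongest candidate (log axis) at the cytosolic gene (blue circle) and the mitochondrial gene (orange diamond) for each of 15 amino acids, joined where both have one; open marks at the left mean no pooled candidate and the dashed line is the weakest IDR peak. Both marks are right of the line for Trp, Tyr, Ile, Met and Glu, and Leu and Arg have only the mitochondrial mark; for Phe the cytosolic mark is alpha-PheRS, and GluProRS stands for both Glu and Pro.

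By catalytic fold, an IDR summit was present at 12 of 18 class I genes (66.7%, 43.7 to 83.7%) and 4 of 16 class II genes (25%, 10.2 to 49.5%), beside 11.1% of all genes; GluProRS, which joins a domain of each class, was counted in neither. The class II genes with one were AlaRS-m, SerRS, alpha-PheRS and ThrRS. In the replicate lists the counts were 13 of 18 and 4 of 16 among the strongest of replicate 1 (11.2% of all genes), and 11 of 18 and 4 of 16 among those of replicate 3 (10.7%). The 2 intervals overlap, the split was looked at among several, and the difference was not tested. Of the 8 enzymes that in mammals are bound in the multisynthetase complex, 3 had an IDR summit (GluProRS, IleRS, MetRS), and of the 12 other cytosolic genes 6 had one, again beside 11.1% of all genes. Along the chromosomes the counts were 2 of 6 on 2L (beside 12.0% of all genes there), 3 of 8 on 2R (12.1%), 7 of 10 on 3L (11.1%), 4 of 7 on 3R (12.0%) and 1 of 4 on X (7.74%).

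Many members start beside another gene on the opposite strand. Such a start lay within 1000 bp upstream of 24 of the 35 (68.6%, 52.0 to 81.4%), beside 35.2% of all genes; this was so for 17 of 20 cytosolic and 7 of 15 mitochondrial genes. With such a neighbour, 12 of 24 members had an IDR summit (50%, 31.4 to 68.6%), beside 22.1% of all genes with one. Without it, 5 of 11 did (45.5%, 21.3 to 72.0%), beside 5.11% of all genes without one; these 5 were CysRS, GluRS-m, IleRS-m, MetRS-m and TrpRS-m. On which of the genes at a shared promoter a peak acts was not tested.

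The strongest IDR summit also lay within 1000 bp of a start of another gene for 13 of 17 members (76.5%, 52.7 to 90.4%), beside 76.2% of all genes with an IDR summit. That was 9 of 9 cytosolic and 4 of 8 mitochondrial genes. The other gene's start was the nearer one for 5 of 17 members, AlaRS-m, CysRS, TrpRS, TyrRS-m and alpha-PheRS (29.4%, 13.3 to 53.1%), beside 38.1% of all genes with an IDR summit. More than 1 IDR summit was present at 4 of 17 (CysRS, LeuRS-m, TrpRS, TyrRS), beside 13.5% of such genes.

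**Figure D4:**
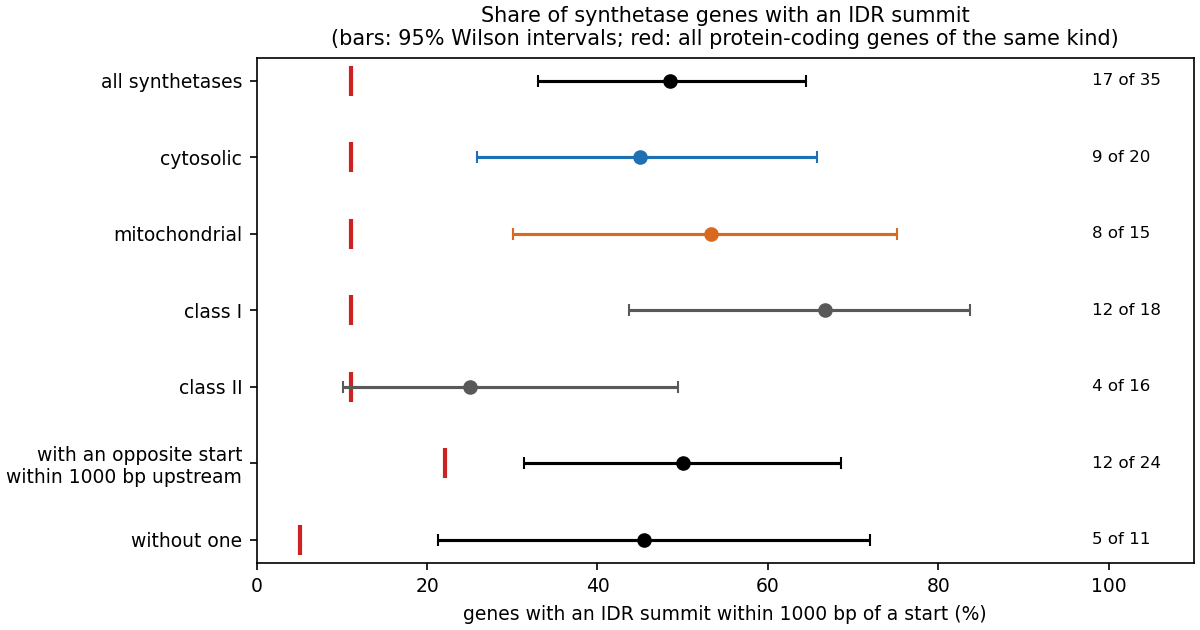
Share of synthetase genes with an IDR summit within 1000 bp of a start, in percent, with 95% Wilson intervals (counting error only), and in red the share over all protein-coding genes, those with or without an opposite start upstream for the lowest 2 rows. The share is 17 of 35 overall against 11.1% of all genes, 50% against 22.1% with an opposite start and 45.5% against 5.11% without one.

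The strongest IDR summit lay a median of 61 bp from the nearest start of the member, beside 88 bp over all genes with an IDR summit, and within 100 bp for 14 of 17 members, where 832 of 1550 genes had one that near. The median was 77 bp for cytosolic and 42.5 bp for mitochondrial genes. It was upstream for 12 of 17, 8 of 9 cytosolic and 4 of 8 mitochondrial, beside 83.6% of all genes with an IDR summit. The members had 22 distinct IDR summits: 14 intergenic, 4 in a 5′ UTR, 2 in an intron and 2 in a coding exon. The same counts over all IDR summits are not given here, so these positions cannot be called particular to the members. Of the 22 summits, 16 were at the highest −log10 q that the list gives, 3.21, beside 72.9% of all IDR peaks.

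The E-box CAGCTG, which reads the same on both strands, was wholly within 50 bp of 11 of the 22 distinct member IDR summits (50%, 30.7 to 69.3%), beside 48.2% of all IDR summits and 4.52% of the candidates that overlap no IDR peak. It was at 6 of 12 cytosolic and 5 of 10 mitochondrial summits, and at 2 of 16 distinct member candidates that overlap no IDR peak. The base before the hexamer, read on either strand, was A at 11 of 14 sites under member summits (78.6%), beside 482 of 615 under all IDR summits (78.4%) and 548 of 1181 under the candidates that overlap no IDR peak (46.4%). The DNA within 50 bp of member summits had a GC content of 40.1% and those at all IDR summits 39.9%.

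Read from the promoter instead, from 250 bp before to 50 bp after the 5′-most start, CAGCTG was present at 17 of 35 members (48.6%, 33.0 to 64.4%), beside 17.6% of all genes. It was present at 15 of the 17 members with an IDR summit (88.2%, 65.7 to 96.7%), beside 62.6% of all genes with one, and at 2 of the 18 without (11.1%, 3.1 to 32.8%), beside 12.0% of all genes without. IleRS-m and ThrRS had an IDR summit and no copy in that stretch. ArgRS and HisRS, both on X, had 1 copy each and no pooled candidate. A copy is a match of letters and was not tested as a binding site.

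The replicates gave near values at the strongest member summits. The IDR set was made from these same replicates, and its membership followed the pooled signal. Near values there are therefore not independent of that choice. On the log2 scale, replicate 3 over replicate 1 gave a median of -0.05 (SD 0.31, n = 17 genes, range -0.91 to 0.31), and replicate 3 was higher at 7 of 17. Over all genes with an IDR summit the median was -0.19 (SD 0.48), and replicate 3 was higher at 522 of the 1550. Some of those genes had no candidate of 1 replicate at the summit. Over the 22 distinct member summits the median was -0.06 (SD 0.72), beside -0.17 (SD 0.57) over 1115 IDR peaks with a candidate in both replicates. The lowest ratios were -2.17 at the second TrpRS summit and -1.88 at the second LeuRS-m summit, where the replicate 1 candidate also covered the stronger summit beside it. The highest was 1.25, at the LeuRS-m summit 871 bp upstream (27.1 in replicate 1 and 64.4 in replicate 3). There the replicate 3 candidate covered 2 pooled summits. With 2 replicates no test of a single gene was made.

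**Figure D5:**
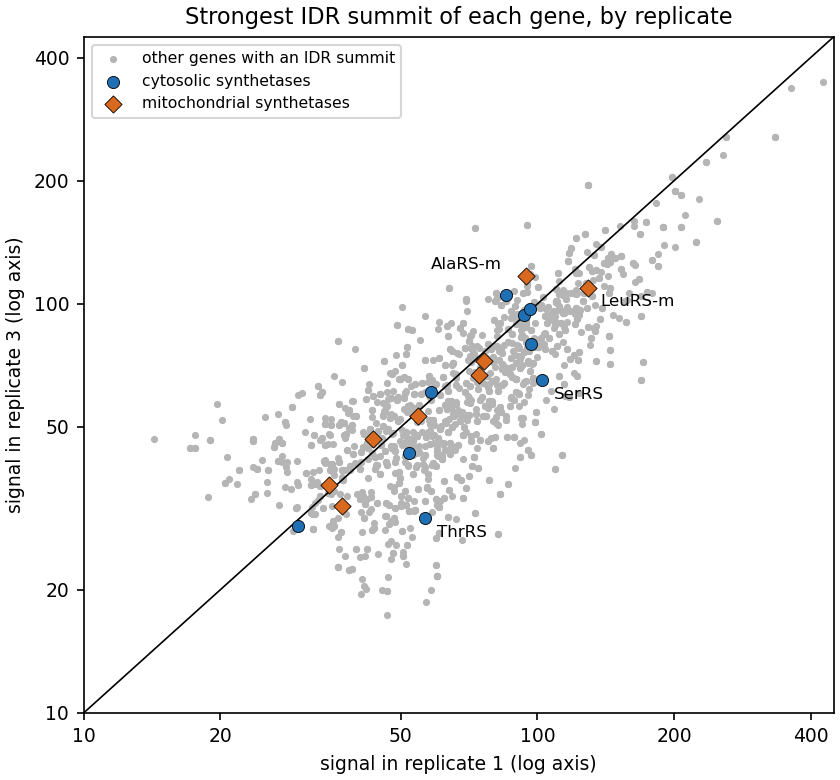
Signal in replicate 3 against replicate 1 (log axes) at the strongest IDR summit of each gene; grey points are other genes, blue circles cytosolic and orange diamonds mitochondrial synthetases, and the line marks equal values. The synthetases lie near the line, with ThrRS (56.4 and 29.99) and SerRS (102 and 65.2) the farthest toward replicate 1 and AlaRS-m (94.5 and 117) above it.

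Of 19 listed genes that act beside the synthetases, 3 had an IDR summit (15.8%, 5.5 to 37.6%), beside 11.1% of all genes, and 11 had a candidate (57.9%, 36.3 to 76.9%), beside 50.7%. CG1750, listed as a mitochondrial methionyl-tRNA formyltransferase though the annotation gives it no product name, had 181 (87.5 and 96.1). Its summit lay 65 bp upstream of its start and was shared with spn-F. GatB, a subunit of the mitochondrial amidotransferase that makes glutaminyl-tRNA from glutamyl-tRNA, had 142 (79.3 and 56.9), 3 bp upstream of its start and shared with Tsc1, an inhibitor of TOR signalling. Slimp, a mitochondrial paralog of seryl-tRNA synthetase, had 119 (48.6 and 68.4), 20 bp downstream. The other amidotransferase genes differed, with GatA at 35.8 and GatC without a candidate. None of AIMP1, AIMP2 and AIMP3, the scaffold proteins of the multisynthetase complex, had a candidate. The carriers of charged tRNA to the ribosome had no IDR summit; the strongest candidate among them was at mEFTu2, of mitochondria, with 57.2 (27.2 and 29.3). Of the genes listed for the response to uncharged tRNA, Gcn2, the kinase, had 26.7, and crc, the fly ATF4, had 39.9 (17.3 and 30.3).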

How the data were processed

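crp-GFP ChIP-seq peaks were analysed from 4 deposited dm6 lists: the candidates of each of the 2 replicates, those of the pooled replicates and the optimal IDR peaks. Each list holds, as the authors deposited it, a signal value per peak, a −log10 q-value and a summit offset in bp (an "other" value). The labels name no aligner, peak caller, signal scaling or IDR threshold (not given in the sources used here), and depth is unknown. The 4 dm3 lists were not used. Transcript starts, of protein-coding genes only, came from Ensembl release 115. A summit counted for each gene with a start within 1000 bp, and a replicate's value is its strongest candidate covering the pooled summit. CAGCTG was searched in the dm6 reference. Shares have 95% Wilson intervals. The group has 1 condition, so no test was run. Members, gene lists and splits were chosen with earlier results of these data known. Every member was accounted for; those with an IDR summit, the 3 strongest and 3 weakest other candidates, those without one and pathway genes with an IDR summit were named. Scripts were tested on simulated peaks. The alternatives were other windows, start choices, peak thresholds, motif distances and single replicates. Python 3.11.15, NumPy 2.4.6, pandas 2.3.3, SciPy 1.17.1 and matplotlib 3.10.9 were used.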

Additional observations from a re-analysis of the deposited data

How the results depend on the processing

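Of 49 recomputed values, 41 kept the direction and stayed within the limit for a change. With the 561 stronger IDR peaks, 11 members had a summit (31.4%, beside 6.49% of all genes), 5 of them mitochondrial, and the median signal was 173; GluProRS, GluRS-m, MetRS, MetRS-m, ThrRS and TrpRS-m were lost. Counting a summit for the nearest gene only left 13 members (37.1%, beside 7.37%) and a median signal of 112, without AlaRS-m, TrpRS, TyrRS-m and alpha-PheRS. A window of 500 bp gave a median signal of 117. The median signals over all genes under these settings are not given here. CAGCTG within 25 bp was found at 6 of the 22 distinct member IDR summits, against 11 within 50 bp. The share over all IDR summits within 25 bp is not given here. Without replicate 1 or 3 the members with a summit numbered 15 to 17 and the median distance was 52 to 56 bp, against 61 bp; replicate 3 alone lost GluProRS and GluRS-m, and replicate 1 alone lost GluProRS and gained ValRS-m. The cause of these changes was not tested. No paired analysis was possible because the samples form 1 group. The lists give peaks and no reads, so absence of a candidate is a limit of detection, and pooled, mixed-stage embryos give no cell type.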
